A study of Mus musculus with 2 samples.

Results

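Accessible regions of mouse heart that were called in only 1 of 2 replicates numbered 54279, of 158902 merged regions in all. Peaks of both replicates that overlapped by at least 1 base were merged, and a region belonged to this set when its peaks came from a single replicate. Replicate 1 alone gave 35993 regions, 22.7% of the merged regions, and replicate 2 alone gave 18286, or 11.5%. The other 104623 regions held a peak from each replicate and are called shared. Membership was thus selected on the peak calls themselves, so the signal of the members and what the other replicate recorded at them are given as descriptions, with no test.

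The assay was DNase-seq: nuclei are treated with DNase I, which cuts DNA that nucleosomes or other proteins do not cover, and the cut ends are sequenced. Hearts came from 14-day-old B6CASTF1/J males, whose parents are of strains C57BL/6J and CAST/EiJ, and no other genotype or treatment is given. The study had 1 group with 2 biological replicates, so no comparison of conditions and no test between groups was possible, and the replicates served only as each other's counterpart. Replicate 1 is labelled as 3 males, while for replicate 2 the number of animals is not stated, nor is pooling of hearts for either. The peak signal is the authors' own value, on a read-depth scale that is not further defined, and read totals were not at hand, so the depth behind a region is unknown.

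Accessible regions are mostly promoters, where transcription starts, and enhancers, which raise the transcription of genes from a distance. Promoters of broadly used genes tend to lie in CpG islands, GC-rich stretches that are open in most cell types, whereas enhancers are more often particular to a cell type and hold binding sequences of its transcription factors. In the heart these include the factors MEF2, GATA4, NKX2-5, TBX5 and HAND2, which act together at genes of contraction. A whole heart also holds endothelial cells, fibroblasts, smooth muscle, pericytes and leukocytes, and a weak region in tissue may be open in few cells or a little open in many. These cannot be told apart here.

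The heart label was checked against defining genes. All 5 cardiomyocyte genes (Myh6, Actc1, Tnnt2, Ryr2 and Ttn) had a shared region within 1 kb of a start, with signals of 1.88 to 3.20. The same held for 4 of 4 endothelial, 4 of 4 fibroblast and 3 of 3 smooth muscle genes and for 2 of 3 leukocyte genes, the exception being Ptprc. None of 3 erythroid genes and neither hepatocyte gene had one, but both neuronal genes did, Snap25 at 6.54 and Rbfox3 at 3.67. None of these 26 promoters carried a member without a shared region.

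Sequences are shown for the strongest members of each replicate, because these lie beside a peak of the other replicate, mostly at promoters. Each is the 150 bp window around the middle of the highest peak, read from the reference genome GRCm38 (mm10), and capitals mark the footprints of the replicate that called the region, short stretches protected from cutting. Windows with an annotated UTR or with sequence repeated elsewhere in the genome were passed over. The 3 strongest remaining members of replicate 1 alone lay near starts of Lims1, an adaptor of integrin signalling, Bms1, a ribosome assembly factor, and Atf5, a basic leucine zipper transcription factor.
Lims1, chr10:58323086-58323235, plus strand: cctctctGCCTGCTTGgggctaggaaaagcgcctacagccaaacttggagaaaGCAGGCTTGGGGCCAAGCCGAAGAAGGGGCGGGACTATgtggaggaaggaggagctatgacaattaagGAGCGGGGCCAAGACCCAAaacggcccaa
Bms1, chr6:118419706-118419855, plus strand: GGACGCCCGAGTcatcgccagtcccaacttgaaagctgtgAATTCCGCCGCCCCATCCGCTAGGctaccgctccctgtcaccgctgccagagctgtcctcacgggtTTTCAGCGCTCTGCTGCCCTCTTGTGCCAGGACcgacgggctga
Atf5, chr7:44815786-44815935, plus strand: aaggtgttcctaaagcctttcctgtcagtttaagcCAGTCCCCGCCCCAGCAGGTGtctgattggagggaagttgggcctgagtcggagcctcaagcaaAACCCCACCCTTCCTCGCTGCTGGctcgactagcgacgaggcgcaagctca

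The corresponding members of replicate 2 alone lay near Irx5, a homeobox factor of the heart, Stt3b, a catalytic subunit of the enzyme that attaches N-glycans, and Maz, a zinc finger protein that binds GC-rich DNA. Their GC content was 79.3%, 74.7% and 83.3%, against 58.0%, 64.0% and 58.7% in the windows at Lims1, Bms1 and Atf5. Over the 10 strongest members the ranges overlapped, from 59.3 to 83.3% (median 74.0%) in replicate 2 alone and from 52.0 to 75.3% (median 61.3%) in replicate 1 alone.
Irx5, chr8:92355856-92356005, plus strand: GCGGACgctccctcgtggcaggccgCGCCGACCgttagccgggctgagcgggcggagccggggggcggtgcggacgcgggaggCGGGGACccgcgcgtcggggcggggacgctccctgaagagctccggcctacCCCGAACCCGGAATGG
Stt3b, chr9:115310836-115310985, plus strand: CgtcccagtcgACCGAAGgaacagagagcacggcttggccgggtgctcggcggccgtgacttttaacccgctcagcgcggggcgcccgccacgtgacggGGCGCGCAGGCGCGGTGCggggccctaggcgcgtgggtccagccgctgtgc
Maz, chr7:127026756-127026905, plus strand: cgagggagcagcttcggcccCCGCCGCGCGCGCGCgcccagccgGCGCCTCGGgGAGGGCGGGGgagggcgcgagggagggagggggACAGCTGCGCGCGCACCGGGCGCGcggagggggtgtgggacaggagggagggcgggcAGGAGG

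Members at which the other replicate listed no base were weaker and mostly lay outside promoters. The strongest of replicate 1 alone was in an intron of Ccdc63, with Myl2, the gene of the ventricular regulatory myosin light chain, as its nearest gene start at 10505 bp. The letters AGGGGGC, used here for the core of the insulator protein CTCF, stood inside its second footprint. The strongest of replicate 2 alone outside repeated sequence was intergenic, 12411 bp from the nearest start, that of Ifngr2, a subunit of the interferon gamma receptor.
Myl2, chr5:122114343-122114492, plus strand: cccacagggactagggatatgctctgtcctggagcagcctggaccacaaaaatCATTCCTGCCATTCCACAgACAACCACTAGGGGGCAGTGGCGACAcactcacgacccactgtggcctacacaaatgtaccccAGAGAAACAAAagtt
Ifngr2, chr16:91534586-91534735, plus strand: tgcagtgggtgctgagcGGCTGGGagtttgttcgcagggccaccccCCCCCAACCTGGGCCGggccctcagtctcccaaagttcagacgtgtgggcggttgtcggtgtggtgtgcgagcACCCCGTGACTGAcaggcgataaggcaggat

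One-replicate regions were weak. Their highest peak had a median signal of 0.383 in replicate 1 alone, with 5% below 0.177 and 5% above 0.887, against a median of 1.10 in that replicate's shared regions. In replicate 2 alone the median was 0.328, with 5% below 0.149 and 5% above 0.740, against 0.877 in the shared regions. The lower signal values came in whole steps of 0.00709 in replicate 1 and of 0.00597 in replicate 2 (tolerance 0.02 of a step). By that measure the median member stood 54 steps above zero in replicate 1 alone and 55 in replicate 2 alone, against 155 and 147 for the shared regions of those replicates. Members were also narrower, with median widths of 135 and 119 bp, against 200 bp for shared regions, which join peaks of both replicates.

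The share of one-replicate calls depended steeply on signal. Of regions that replicate 1 called at a signal of 0.25 to 0.5, 54.9% had no peak in replicate 2 (18933 of 34512, exact 95% interval 54.3 to 55.4%). At 1 to 2 this was 3.77% (969 of 25678) and from 4 upwards 0.554% (94 of 16963). Replicate 2's regions had a partner more often at each of these levels, with 30.0% alone at 0.25 to 0.5 (9725 of 32465), 1.19% at 1 to 2 (252 of 21252) and 0.205% from 4 upwards (28 of 13691). The signals of the replicates are not on 1 defined scale, so the bins of one need not match those of the other. Intervals here and below are exact 95% intervals from the counts, which cover counting error only, and regions of 1 library are not independent.

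**Figure D1:**
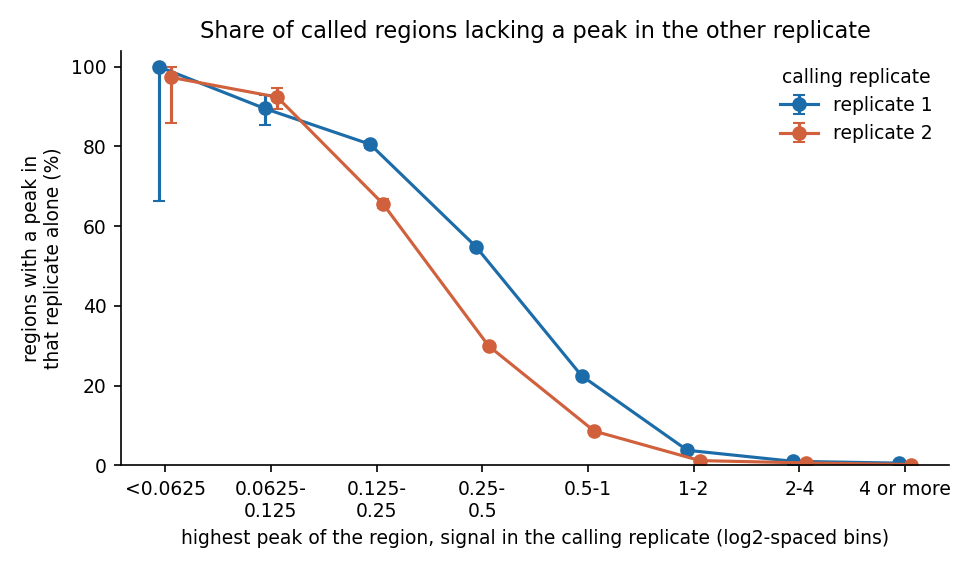
Share of the regions called by a replicate that had no peak in the other, in bins of the calling replicate's signal, with exact 95% intervals. Both curves drop steeply, from 54.9% (replicate 1) and 30.0% (replicate 2) at a signal of 0.25 to 0.5 to below 1% from 4 upwards.

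At the edge of the rule, 154 members of replicate 1 and 134 of replicate 2 touched a peak of the other replicate without sharing a base, with median signals of 0.603 and 0.463. Just inside the shared set were 411 regions whose peaks overlapped by up to 20 bp, with median signals of 0.397 in replicate 1 and 0.358 in replicate 2. These are 0.393% of the shared regions, whose peaks overlapped by a median of 180 bp.

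At most members the other replicate listed no base at all. The files list, for each replicate, every run of bases whose false discovery rate (FDR) of DNase cleavage was under 0.05. In the 150 bp window, the other replicate listed at least 1 base at 17.7% of the members of replicate 1 alone (17.3 to 18.1%) and at 18.5% of those of replicate 2 alone (17.96 to 19.1%). Shared regions of equal signal, weighted to the members' signal distribution in log2 bins of 0.25, had such a base in 99.7% of windows in each direction, which the sharing of a peak nearly fixes. In windows moved 2 kb to either side and free of any merged region the share was 1.28% for replicate 1 alone (873 of 67939) and 1.94% for replicate 2 alone (645 of 33289). Of single bases of the genome, peaks included, replicate 2 listed 1.48% and replicate 1 listed 1.61%. A share of bases is not comparable with a share of windows that hold at least 1 listed base. Where the other replicate did list a base in the region, 58.7% of such members of replicate 1 alone and 58.2% of those of replicate 2 alone reached no FDR below 0.01 in it. The calling replicate's own evidence was weaker too, since 22.5% of the windows of replicate 1 alone held an own base under 0.001, against 44.7% in shared regions of equal signal. For replicate 2 alone it was 16.3%, against 31.3%.

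Listing by the other replicate followed the distance to its nearest peak. Here a listed base was counted anywhere in the whole region, not in the 150 bp window. Of members that touched such a peak, 96.1% in replicate 1 alone and 94.0% in replicate 2 alone had a listed base, and at up to 50 bp 70.3% and 59.8%. Between 150 and 500 bp it was 34.3% in replicate 1 alone and 22.0% in replicate 2 alone. Beyond 5 kb it was 8.14% (7.71 to 8.57%) in replicate 1 alone and 7.64% (6.97 to 8.35%) in replicate 2 alone. These shares were above those of the windows moved 2 kb, which were 150 bp long and came from members at every distance. Members within 150 bp of the other replicate's peak made up 8.60% of replicate 1 alone and 13.6% of replicate 2 alone, while 43.8% and 32.1% lay more than 5 kb away.

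**Figure D2:**
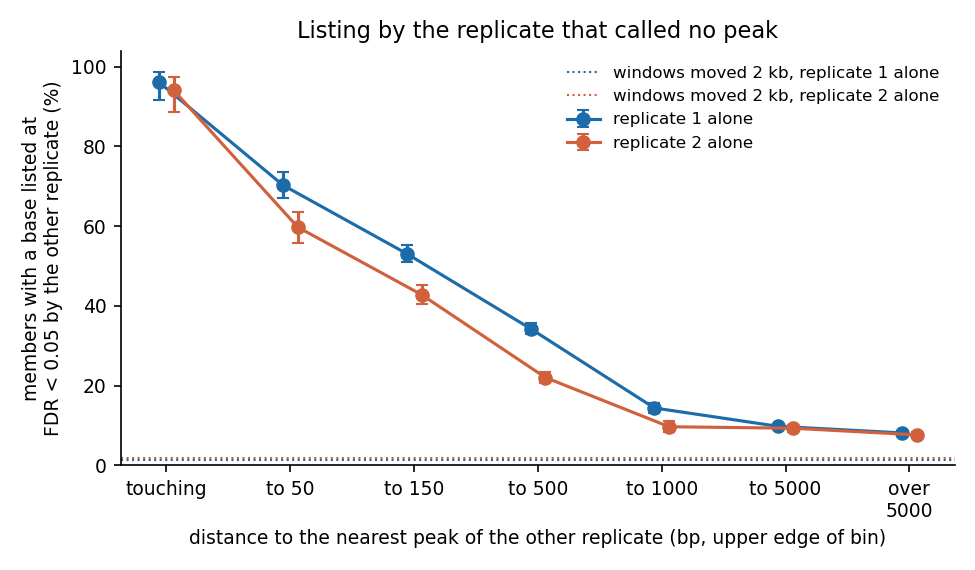
Percent of one-replicate regions with a base listed at FDR under 0.05 by the replicate that called no peak, by the distance to that replicate's nearest peak, with exact 95% intervals; dotted lines give windows moved 2 kb. The share is 96.1% and 94.0% at touching peaks and 8.14% and 7.64% beyond 5 kb, above both dotted lines. The points count whole regions, while the dotted lines count 150 bp windows of members at every distance.

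The strongest members lay beside shared regions, mostly at promoters: the other replicate's nearest peak was part of a shared region for all 10 strongest members of each replicate. All 10 strongest of replicate 1 alone lay within 1 kb of a protein-coding start, with signals of 8.82 to 17.4, and all lay within 100 bp of a peak of replicate 2. They were near Dazap2, C2cd3, Lims1, Rbpj, Bms1, Rhbdd3, Atf5, Cpeb2, Ttc16 and Pole3. The first, at Dazap2 (chr15:100615261-100615340), had a signal of 17.4 and a lowest FDR of 7.15e-139 in replicate 1, and replicate 2 listed all of its 80 bases with a lowest FDR of 1.08e-114. Rbpj, the DNA-binding factor of the Notch pathway, had a member of signal 11.8 at chr5:53590561-53590740, 40 bp from a replicate 2 peak and with 3 footprints from each replicate. The region of replicate 1 alone at Atf5 was listed by replicate 2 at an FDR given as 0.

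The 10 strongest of replicate 2 alone had signals of 6.23 to 10.2 and lay within 180 bp of a peak of replicate 1. They were near Tarbp2, Irx5, 1700029J07Rik, Stt3b, Maz, Atxn7l3, Leng8, B3galt6, Mterf3 and Magi3. At Tarbp2, a partner of Dicer in microRNA processing, the member (chr15:102518281-102518520) had a signal of 10.2 and replicate 1 listed all 240 bases with a lowest FDR of 2.75e-105. The member near Irx5, 1694 bp from its start, was the only one of these 10 outside the 1 kb windows. It lay in an annotated exon but in no protein-coding gene, so the exon is not one of Irx5. At all 20 of these regions the other replicate had footprints and a lowest FDR of 2.50e-29 or less, so the absence of a peak there did not go with an absence of cleavage.

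No member of replicate 1 alone with a signal over 2 lacked a listed base of replicate 2: all 244 such members had one. Of 102 such members of replicate 2 alone, 99 had one. Members with no listed base numbered 29854 in replicate 1 alone and 15185 in replicate 2 alone, with median signals of 0.362 and 0.310 and 99% of them below 1.01 and 0.871. The strongest in replicate 1 alone were the region near Myl2 shown above (chr5:122114347-122114488, signal 1.91), 1 in an intron of Gramd4 (signal 1.70) and 1 in an intron of Midn (signal 1.67), followed by promoter regions of St6galnac6 (1.62), Fam53b (1.62) and Ak1 (1.57), the gene of adenylate kinase of muscle. An intron of Ech1, a fatty acid oxidation enzyme, held another (1.53).

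In replicate 2 alone, the 3 strongest unlisted members lay side by side at Gm21887 near the end of chromosome X, with signals of 3.95, 3.43 and 2.26. Of the 10 strongest, 7 lay there, and every 32-base word of their windows also occurs elsewhere in the genome. The words were only counted, and where their other copies lie was not examined. Over a stretch chosen after these values were seen, chrX:170002652-170881132 replicate 2 alone had 15 regions and replicate 1 alone had 1, and 5 were shared. None of the 15 held a base listed by replicate 1. The 5 shared regions had a median signal of 8.68 in replicate 2 and 2.97 in replicate 1. Outside repeated sequence, the strongest unlisted members of replicate 2 alone were the one near Ifngr2 shown above (1.75) and those at the promoter of Mtch1, a protein of the outer mitochondrial membrane (1.44), and in an intron of Adamtsl4 (1.43).

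The GC content of a weak region went with which replicate called it. The mean GC of the window, which for shared regions was centred on the same calling replicate's peak, was 52.2% in replicate 1 alone, against 53.1% in shared regions of equal signal, and 55.03% in replicate 2 alone, against 52.0%. The mean number of CpG sites was 2.91 in replicate 1 alone, against 3.40, and 3.93 in replicate 2 alone, against 2.87. Among all merged regions whose higher signal was 0.25 to 0.5, replicate 1 alone accounted for 62.5% of those with a GC content under 40% (362 of 579) and for 16.8% of those at 70% or more (112 of 667). Replicate 2 alone accounted for 6.56% (38 of 579) and 43.2% (288 of 667) of the same regions. The shared part was 30.9% and 40.03% at these ends and 31.7 to 35.0% in the bins between them.

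The pattern depended on the signal. At a signal of 0.5 to 1, replicate 1 alone took 25.4% of the regions under 40% GC and 12.8% of those at 70% or more, and replicate 2 alone took 0.877% and 16.8%. At 1 to 2, both shares were higher at high GC: 1.94% (5 of 258) and 9.28% (157 of 1691) for replicate 1 alone, and 0% (0 of 258) and 4.61% (78 of 1691) for replicate 2 alone. What part sequencing depth or library preparation had in this was not tested.

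**Figure D3:**
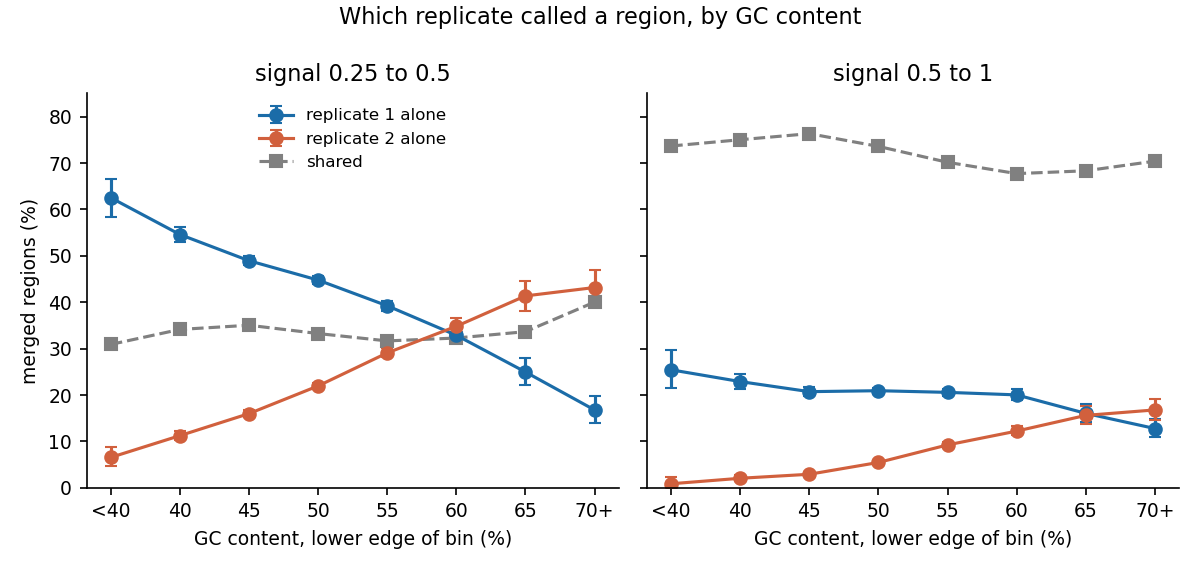
Percent of merged regions called by replicate 1 alone, by replicate 2 alone and by both, in bins of the GC content of the 150 bp window, for regions whose higher signal was 0.25 to 0.5 (left) and 0.5 to 1 (right), with exact 95% intervals. On the left the share of replicate 1 alone is 62.5% under 40% GC and 16.8% from 70% GC, and that of replicate 2 alone is 6.56% and 43.2%.

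Promoters were more common in replicate 2 alone than in shared regions of equal signal, and slightly less common in replicate 1 alone. Within 1 kb of a protein-coding start lay 11.1% of replicate 1 alone (3989 regions, 10.8 to 11.4%), against 12.1% of shared regions of equal signal. Of replicate 2 alone it was 15.9% (2901 regions, 15.3 to 16.4%), against 8.84%. When shared regions were weighted to both signal and GC content, they had 10.5% and 12.7% at promoters, so the sign turned round for replicate 1 alone and the gap for replicate 2 alone was 3.20 points in place of 7.02. Introns held 44.7% of replicate 1 alone, against 40.5%, and 38.9% of replicate 2 alone, against 41.2%. Exons outside promoters held 7.22% of replicate 1 alone, against 7.26%, and 10.9% of replicate 2 alone, against 6.64%. Members with a base listed by the other replicate lay at promoters in 34.3% of cases in replicate 1 alone and 30.1% in replicate 2 alone. Those without one did so in 6.31% in replicate 1 alone, against 11.9% of shared regions of their signal, and in 13.0% in replicate 2 alone, against 8.35%. The listed members were stronger, with median signals of 0.511 and 0.430, against 0.362 and 0.310 for the unlisted. They also lay nearer the other replicate's peaks, at medians of 332 and 220 bp, against 4667 and 2101 bp. No shared regions were weighted to the signal of the listed members.

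Autosomes had similar shares, from 19.3% on chromosome 11 to 24.7% on chromosome 3 for replicate 1 alone, and from 10.4% on chromosome 2 to 12.6% on chromosome 14 for replicate 2 alone. On chromosome X, of which a male cell carries 1 copy, 24.6% of the 4275 merged regions were of replicate 1 alone and 16.7% of replicate 2 alone. Regions on X were weaker, with a median of 0.454 in those of replicate 1, against 0.787 on autosomes, and of 0.424 in those of replicate 2, against 0.740. At equal signal, however, a region on X was one-replicate less often: 29.5% of replicate 1's regions on X (28.0 to 31.0%), against 42.7% on autosomes, and 22.2% of replicate 2's (20.7 to 23.6%), against 33.2%. The share of regions with an own base under FDR 0.001 was 66.0% on X in replicate 1, against 49.1% on autosomes at equal signal, and 63.2% in replicate 2, against 48.1%. Chromosome Y had 103 merged regions, of which 30 were of replicate 1 alone and 38 of replicate 2 alone.

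Footprints, stretches of a few bases within open DNA that bound protein shields from the enzyme, were called by the calling replicate at more than 50% of members, less often than at shared regions of equal signal, and were rare in the other replicate. In the window, the calling replicate had a footprint at 58.2% of replicate 1 alone (57.7 to 58.7%), against 63.8%, and at 52.6% of replicate 2 alone (51.8 to 53.3%), against 63.6%. The other replicate had one at 1.76% of replicate 1 alone, against 64.7%, and at 1.37% of replicate 2 alone, against 67.2%. Its footprints at members were near its own peaks: of the members that touched one, 40.9% in replicate 1 alone and 29.1% in replicate 2 alone had such a footprint, and none of those more than 500 bp away did. The smaller, stricter peak set of the calling replicate held 18.4% of replicate 1 alone, against 39.6% of shared regions of equal signal, and 13.1% of replicate 2 alone, against 26.9%.

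Short binding sequences were searched in the windows, on both strands, as 24 fixed strings, and each share is set beside that in shared regions of equal signal. A match is a string of letters and not a bound site. In replicate 1 alone the 3 highest ratios were those of the T-box string AGGTGTGA, in 0.475% of members (171 regions) and at a ratio of 1.26, YY1 (AAGATGG, 2.69% and 1.17) and AP-1 (TGANTCA, 7.18% and 1.10). The 3 lowest were SP1 (GGGCGG, 6.58% and 0.782), FOX (TGTTTAC, 1.62% and 0.814) and the E-box CAGCTG, the form bound by muscle-type basic helix-loop-helix factors (16.8% and 0.866). With weighting to GC content as well, these ratios were 1.24 for T-box, 1.15 for YY1, 1.05 for AP-1, 0.919 for SP1, 0.791 for FOX and 0.867 for CAGCTG, and SRF, at 0.808, was then the second lowest. Over all merged regions the shares were 0.410% for T-box, 2.55% for YY1, 6.19% for AP-1, 14.3% for SP1, 1.62% for FOX and 17.8% for CAGCTG.

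In replicate 2 alone T-box was again highest, in 0.629% of members (115 regions) and at a ratio of 1.72, followed by SP1 (9.76% and 1.45) and NRF1 (GCGCATGC, 0.569% and 1.24). Lowest was the MEF2 core (TATTTTTA, TATTTATA or TAAAAATA), which members held in 0.952% (174 regions, 0.816 to 1.10%), against 1.96% of shared regions of equal signal, a ratio of 0.485. The NFI half-site TTGGCA followed with 12.4% and a ratio of 0.701, and the SRF core (CCATATTA, CCTTATTA or CCATATAA) with 0.355% and 0.705. Replicate 1 alone held the MEF2 core in 1.96% of members (707 regions), against 1.90%. All merged regions held it in 1.67%, NFI in 14.8%, NRF1 in 0.927% and SRF in 0.374%. With shared regions weighted to GC content as well, the ratio for replicate 2 alone was 0.730 for MEF2, 0.983 for SP1, 0.928 for NRF1, 0.924 for SRF and 0.766 for NFI, and that of T-box was 1.79. With GC content weighted, SP1 and NRF1 thus went from above 1 to below it in replicate 2 alone. MEF2, SRF and NFI stayed below 1 there but came nearer to it, MEF2 from 0.485 to 0.730. T-box stayed above 1 in both replicates under both weightings. So did YY1, at 1.17 and with GC 1.23 in replicate 2 alone, and the E-box CACGTG, at 1.07 and 1.01. The E-box CAGCTG stayed below 1 in both replicates, at 0.846 and 0.808 in replicate 2 alone, as did several other strings, among them FOX.

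**Figure D4:**
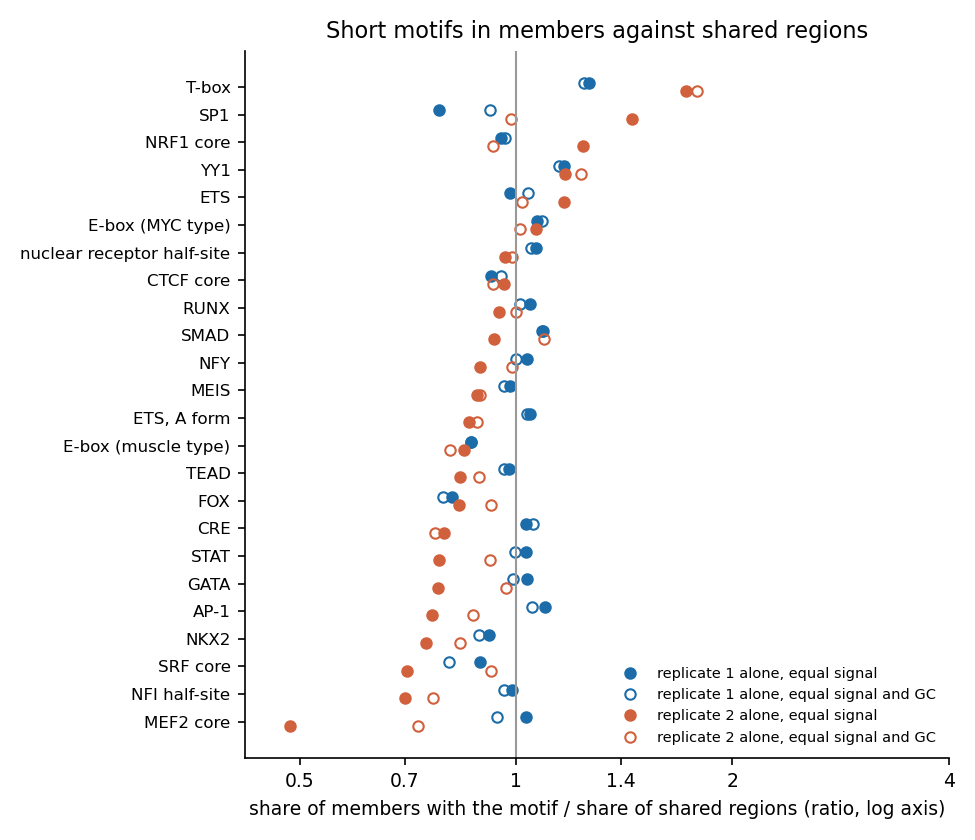
Ratio of the share of one-replicate regions that hold a short motif to the share of shared regions, weighted to equal signal (filled) or to equal signal and GC content (open), on a log axis. Replicate 2 alone spans 0.485 for MEF2 to 1.72 for T-box at equal signal, and replicate 1 alone spans 0.782 for SP1 to 1.26 for T-box.

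Measures of repeated sequence did not all point one way. At least 50% of the window was masked as repeat in 7.88% of replicate 1 alone (7.60 to 8.16%), against 5.74% of shared regions of equal signal, and in 8.85% of replicate 2 alone (8.45 to 9.27%), against 6.41%. Windows with some 32-base words that recur in the genome made up 11.0% of replicate 1 alone, against 11.1%, and 14.1% of replicate 2 alone, against 11.9%. Windows in which at least 50% of the words recur made up 1.81% of replicate 1 alone, against 3.05%, and 3.06% of replicate 2 alone, against 3.03%.

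Some members stood in dense runs. Windows of 20 kb with 10 or more members of 1 replicate, a rule chosen after values were seen, numbered 9 for replicate 1 and 45 for replicate 2, and held 113 members (0.314%) and 619 (3.39%). The run of replicate 2 with the most members was chr9:109021381-109058700, over Pfkfb4, Shisa5, Atrip and Trex1. It had 37 members of median signal 0.155 and none of replicate 1 alone. In that 40 kb, replicate 2 listed 52.3% of all bases under FDR 0.05, and replicate 1 listed 7.81%. At Rasgef1a (chr6:118083781-118098844), 33 members of median signal 0.0895 lay in 20 kb of which replicate 2 listed 55.5% of bases and replicate 1 0.795%. Over the 42 runs of replicate 2 the medians were 34.3% of bases listed by replicate 2 and 9.23% by replicate 1, and 2.75% of the members were listed by replicate 1.

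Replicate 1 had 8 such runs, led by 28 members at chr17:31869885-31897357 and 20 at St3gal4 (chr9:35041624-35059874), where replicate 1 listed 51.2% of the bases and replicate 2 6.11%. Over the 8 runs the medians were 38.7% of bases listed by replicate 1 and 18.2% by replicate 2. In the run at chr8:70742260-70759296 the shares were 30.9% for replicate 1 and 31.8% for replicate 2. At the Ugt1a cluster, whose genes encode enzymes that conjugate bilirubin and drugs, the runs of the replicates were neighbours. Replicate 2 had 26 members at chr1:88211961-88229878, and replicate 1 had 13 at chr1:88240701-88260080, over Mroh2a. Beyond these, replicate 2 had another run of 12 members at chr1:88271621-88279747, over Mroh2a, Hjurp and Trpm8.

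Some promoters were called in 1 replicate only. Of 21842 protein-coding genes, 354 (1.62%) had regions of replicate 1 alone and nothing else within 1 kb of a start, and 273 (1.25%) had regions of replicate 2 alone and nothing else. Another 37 genes had separate regions of each replicate alone, and 14754 had a shared region. Among all genes with a region of replicate 1 alone and no shared one, which include those with separate regions of both, the first by signal were Smim24 (1.37), Sema3b (1.21), Inpp5j (1.15), a phosphoinositide phosphatase, Pcdhga11 (1.15), a protocadherin, and Fxyd3 (0.9503), a regulator of the sodium pump. Sept12 (0.936), H2-Ob (0.872), a chaperone subunit of antigen loading, Car9 (0.830), a carbonic anhydrase, Irx4 (0.830) and Inhbe (0.801) followed. Except at Sema3b and Irx4, replicate 2 listed no base in these regions.

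Among genes with a region of replicate 2 alone and no shared one, the first by signal were Sema3b (1.19), a secreted guidance protein, Irx4 (0.979), Hoxa13 (0.919), Mroh2a (0.883) and Gigyf1 (0.877). Dusp15 (0.836), Fgf21 and Fut1, which share 1 region (0.794), 2610028H24Rik (0.788) and Tbx1 (0.788) followed. Sema3b (1.21), Irx4 (0.830) and Mroh2a (0.723) also had a region of replicate 1 alone and so belong to the 37. Hoxa13, Tbx1 and Irx4 encode developmental transcription factors, Tbx1 of the second heart field, the embryonic source of the outflow tract, and Fgf21 a metabolic hormone. The window at Hoxa13 (chr6:52260861-52260996) had a GC content of 86.0% and 27 CpG sites, and that at Tbx1 (chr16:18590582-18590734) had 67.3% and 13. Replicate 1 listed no base in the replicate 2 regions of Hoxa13, Mroh2a, Fgf21, Fut1 or Tbx1.

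Irx4, a homeobox factor of ventricular muscle, showed how a promoter can fall on both sides of the rule. Replicate 1 called chr13:73260461-73260545 with a signal of 0.830, and replicate 2 called chr13:73260641-73260881 with 0.979. These regions lay 95 bp apart, each held bases listed by the other replicate, and neither overlapped a peak of the other, so that the gene had a region of each replicate alone and no shared one. At Sema3b the regions of the replicates lay 2390 bp apart, again each with listed bases of the other replicate.

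Regions in the body of a gene or within 10 kb were counted for 16 gene lists of heart cell types, other tissues and widely used functions. Over all protein-coding genes, a region counting once for each gene, 19.8% of regions were of replicate 1 alone and 11.2% of replicate 2 alone. At the 35 genes of cardiomyocyte contraction and calcium handling it was 26.2% (130 of replicate 1 alone) and 10.7% (53 of replicate 2 alone), with 314 shared. Ttn, the gene of the sarcomere spring titin, had 11 of replicate 1 alone, 1 of replicate 2 alone and 7 shared. Slc8a1, the sodium-calcium exchanger, had 14 of replicate 1 alone, 2 of replicate 2 alone and 16 shared. Myh6, the adult heart myosin of mice, had 6 of replicate 1 alone, none of replicate 2 alone and 5 shared. Myom1, of the sarcomere M-band, had 6 of replicate 1 alone, 9 of replicate 2 alone and 11 shared. These genes were picked after their counts were seen.

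Cardiac transcription factors had 82 regions of replicate 1 alone (19.4%) and 70 of replicate 2 alone (16.5%). Among them, Tbx3, a repressor of the working muscle programme in the conduction system, had none of replicate 1 alone and 8 of replicate 2 alone, beside 8 shared, while Tbx5 had 5 of replicate 1 alone, none of replicate 2 alone and 10 shared. Smooth muscle and pericyte genes had 25 of replicate 1 alone (15.4%) and 29 of replicate 2 alone (17.9%), of which the actin-binding protein gene Smtn held 17 of replicate 2 alone. A dense run of 13 members of replicate 2 lay over Smtn (chr11:3521101-3538865). Epicardial genes had 6 of replicate 1 alone (9.84%) and 17 of replicate 2 alone (27.9%), beside 38 shared, with Tbx18 and Aldh1a2 holding 5 each and Wt1 4 of the 17. Neuron and glia genes had 43 of replicate 1 alone (25.1%) and 7 of replicate 2 alone (4.09%), beside 121 shared. Cytosolic ribosomal protein genes had 27 of replicate 1 alone (19.4%, near the 19.8% over all genes) and 4 of replicate 2 alone (2.88%, against 11.2% over all genes), beside 108 shared. The median GC content of the regions of a list ran from 52.0% (hepatocyte) to 58.7% (immediate early and ribosomal protein genes), and their median signal from 0.532 (neuron and glia) to 2.12 (ribosomal protein genes). The part of GC content and signal in these counts was not tested, and with counts this small and regions that cluster at single genes no list is called different from all genes.

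**Figure D5:**
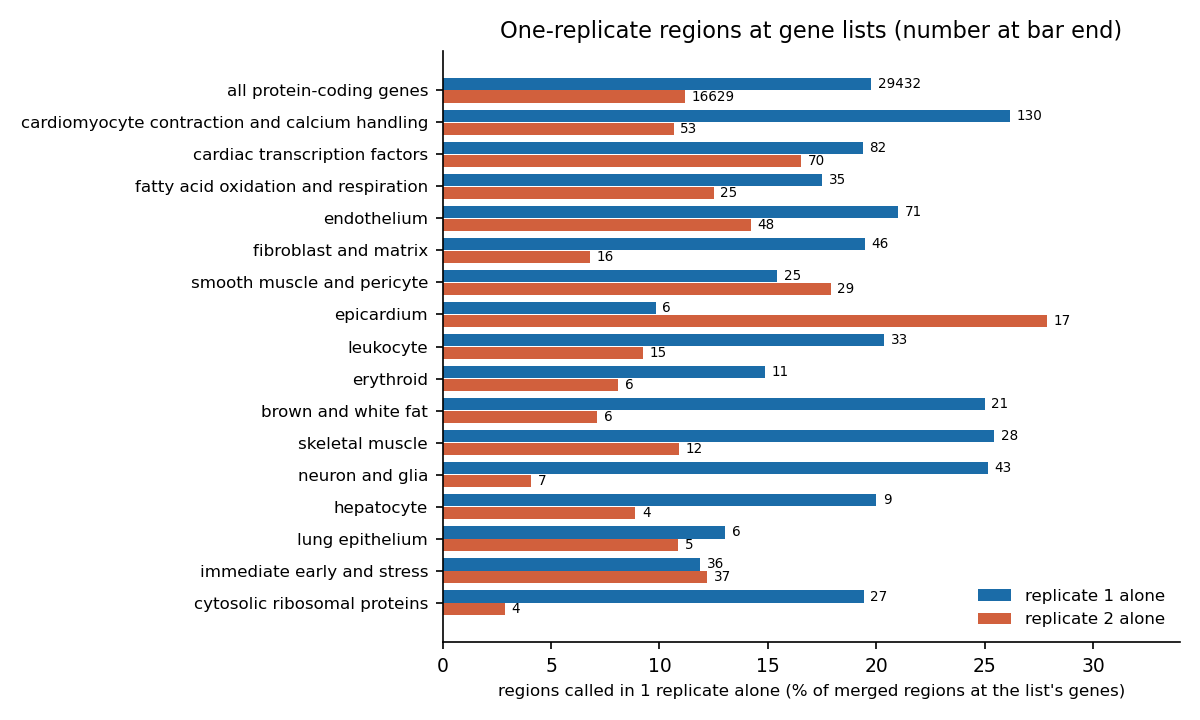
Percent of the merged regions at the genes of each list that were called in replicate 1 alone or in replicate 2 alone, with the number of regions at the end of each bar. The epicardial list, at 27.9% for replicate 2 alone, rests on 17 regions, against 11.2% over all protein-coding genes.

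At promoters, 6 of the 315 list genes (1.90%) had regions of replicate 1 alone and nothing else, against 1.62% of all protein-coding genes, and 3 (0.952%) had regions of replicate 2 alone and nothing else, against 1.25%. These shares are near those of all genes. Myl7, the atrial myosin light chain, had a region of replicate 1 alone (0.745) and no shared one, and Trdn, the calcium store protein triadin, one of replicate 2 alone (0.316). The others were Krt19 (0.475), Itgam (0.305), Ucp1 (0.241), Myf5 (0.426) and Gap43 (0.248) with replicate 1 alone, and Upk1b (0.394) and Pax7 (0.466) with replicate 2 alone. Cx3cr1, a chemokine receptor of macrophages, had separate regions of replicate 1 alone (0.546) and of replicate 2 alone (0.352), as Irx4 did. The lists of metabolism, endothelium, fibroblasts, smooth muscle, erythroid cells, hepatocytes, lung epithelium, immediate early genes and ribosomal proteins had none.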

How the data were processed

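Peaks, low-FDR bases and footprints were deposited per replicate on mm10, each made by the authors from that replicate's filtered alignment, per the deposited notes. Callers, versions and the handling of CAST reads on this C57BL/6J reference are not stated there. The deposited peak signal has no stated scale beyond read depth. The deposited FDR values, a kind of q-value, are listed only under 0.05. The other column in the deposited footprint lists, 0.01 throughout, was not used. The larger of each replicate's peak sets was used.

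Overlapping peaks were merged, and each region's 150 bp window was centred on the middle of the calling replicate's highest peak. Shared regions were weighted to members in log2 signal bins of 0.25; bins held shared regions for 99.98% of members in replicate 1 alone and 99.6% in replicate 2 alone. Place came from GENCODE M21, promoters being 1 kb either side of a protein-coding start. GC, masking and 32-base words came from GRCm38.p6. Of 318 list entries all but 1 gene were found. Named: the 10 strongest members per replicate, the 10 strongest promoter genes and up to 3 per list, and 3 motifs at either end of the ratio; further names were picked with their values known. Sequences on chromosome 18 are not printed. The members and lists were chosen with earlier results of these data known. Scripts were tested on simulated data. Software was Python 3.11.15 with pandas 2.3.3, numpy 2.4.6, numba 0.67.0, matplotlib 3.10.9 and scipy 1.17.1. With 1 group there was no test. Alternatives covered merging, peak sets, FDR limits, windows and weighting.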

Additional observations from a re-analysis of the deposited data

How the results depend on the processing

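Of 78 alternative values, 36 stayed within the counting interval of the reported value (for counts of genes, within 1.5 times), 38 moved and 4 reversed; outside counts and shares of calls, values below are members minus shared regions in points, replicate 1 alone first, and the cause was not tested. The share of merged regions in replicate 1 alone and replicate 2 alone was 21.9% and 10.2% with peaks up to 150 bp apart merged, 20.997% and 7.69% in the smaller peak set, and 15.8% and 15.8% with the same number of peaks by signal, which makes the counts nearly equal by construction; on autosomes that of replicate 2 alone was 11.3%. The difference in bases listed by the other replicate, -82.0 and -81.2, was -62.1 and -74.7 at FDR under 0.01, -30.9 and -51.4 under 0.001, -82.9 and -83.0 over whole regions, and -85.2 and -86.3 with merging at 150 bp.

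The promoter difference, -1.05 and 7.02, was -12.3 and -7.55 without weighting, so replicate 2 alone reversed, -1.91 and 5.75 with merging at 150 bp, -5.54 and 4.61 for members not listed by the other replicate, and 0.547 (reversed) and 3.20 with weighting to signal and GC; for replicate 2 alone it was 3.90 with windows of 500 bp and 9.82 with 2 kb. GC content differed by -0.886 and 2.99, by -0.315 and 3.55 over whole regions, by -3.86 and -1.23 (reversed) without weighting, by -0.577 and 2.82 outside promoters, and for replicate 1 alone by -1.47 among unlisted members. Footprints differed by -5.67 and -11.0, by -8.46 and -13.3 over whole regions, by -30.6 and -35.0 without weighting and by -6.39 and -8.71 with weighting to signal and GC. Repeat-masked windows of replicate 2 alone differed by 3.14 outside promoters. The MEF2 core differed by 0.0595 and -1.01, and by -0.124 (reversed) and -0.352 with weighting to signal and GC. Without the 10 kb flank, 22.0% of regions at listed genes were of replicate 1 alone, against 19.98% with it. Merging of touching peaks, weighting to GC, unlisted members and removal of dense runs were chosen after seeing the data.

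With 2 replicates that define the members, leaving one out ends the rule, so replicates were kept apart instead. No paired analysis was possible because the study has a single group. Read depth is unknown, so a region missing in 1 replicate cannot be told apart from one below its detection limit.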
